A study of Mus musculus with 12 samples.

Results

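Kinesins are motor proteins that use ATP to move along microtubules or to take microtubule ends apart. The genes described here are all those whose symbol begins with Kif followed by a number and that occur once in each of the 12 libraries, which gave 38 of 22293 genes. The libraries were RNA-seq of male mouse germ cells (strain CBA/C57) in which Zmym3, an X-linked gene for a zinc finger protein of a histone demethylase complex, had been deleted with CRISPR-Cas9 (KO) or was intact (WT). KO and WT spermatogonial stem cells (SSCs), labelled 2-month-old and grown on laminin, gave 2 libraries each, and c-KIT+ cells obtained from KO and from WT SSCs with 100 nM retinoic acid (RA) for 36 h gave another 2 each. Spermatocytes sorted by DNA content and size gave 1 KO and 1 WT library at 5 months and the same at 7 months. Spermatocytes came directly from testes, and SSCs and c-KIT+ cells from culture, and which KO allele a library carries is not given in the labels.

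Kinesins are grouped by what they move. Mitotic kinesins build and position the spindle and the midzone between separating chromosomes, and their mRNAs rise in dividing cells. Cargo kinesins carry vesicles and organelles. A further set works in cilia and in the sperm tail, where the motor of intraflagellar transport carries building blocks towards the tip. In spermatogenesis SSCs and differentiating spermatogonia divide by mitosis, spermatocytes pass through a long meiotic prophase, and the sperm tail is built only after meiosis. The 38 genes comprised 13 mitotic kinesins, 12 cargo kinesins, 9 kinesins of the cilium and flagellum, 3 others (Kif12, Kif26a and Kif26b) and Kif4b, which was in no role list.

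Values are FPKM, fragments scaled to gene length and library depth, so levels can be compared between genes. Fold changes are differences on the log2(FPKM + 1) scale, which understates changes of weakly expressed genes. They were tested with limma over all genes that passed a filter of at least 1 FPKM in at least 2 libraries of a fit, with Benjamini-Hochberg adjustment. A gene is called changed at an adjusted p under 0.01, and under 0.05 between KO and WT spermatocytes. Nothing states that the 2 libraries of a cultured group came from separate cultures, so the p-values reflect only how far these libraries lay apart, which may be technical. In bulk RNA, fewer cells of a type and less RNA per cell cannot be told apart.

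Zmym3 was at 9.19 and 9.76 FPKM in KO SSCs and 40.2 and 37.4 FPKM in WT SSCs, and at 10.01 and 11.3 FPKM in KO c-KIT+ cells and 39.9 and 39.7 FPKM in WT c-KIT+ cells. In spermatocytes it was at 0.15 and 0.34 FPKM in the KO libraries and 0.41 and 0.46 FPKM in the WT libraries, so it hardly checks those labels. The summed level of 7 pachytene markers was 3808 to 3901 FPKM in spermatocytes and 58.8 to 138 FPKM in cultured cells. Ldhc made up most of it in spermatocytes, at 2492 to 2668 FPKM, and Sycp3 in cultured cells, at 43.0 to 113 FPKM. The summed level of 5 markers of differentiating spermatogonia was 680 to 753 FPKM in c-KIT+ cells and 79.0 to 95.0 FPKM in SSCs. Most of this sum in c-KIT+ cells was Stra8, at 556 to 627 FPKM, and Dmrtb1 of the same list was lower with RA in both genotypes (-0.71 in KO and -0.77 in WT on the log2 scale). The 6 markers of undifferentiated spermatogonia summed to 143 to 169 FPKM in c-KIT+ cells and 337 to 370 FPKM in SSCs, and the 5 Leydig cell markers to 0.682 to 5.86 FPKM in any library. Libraries of a cultured group correlated at 0.9966 to 0.9982 and the 2 ages of a spermatocyte genotype at 0.988 to 0.989 (Pearson, log2 scale). The first WT SSC library had a total of 302340 FPKM, of which 26720 lay on the microRNA gene Mir3064, while the totals of the other 11 libraries were 262493 to 274670 FPKM.

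Between 28 and 33 of the 38 genes reached 1 FPKM in a library, 23 did so in all 12 libraries, and 3 (Kif1a, Kif12 and Kif26b) in none. Kif12 was listed at 0 in every library. In cultured cells the mitotic group was the most abundant, with a summed level of 274 to 300 FPKM, against 135 to 165 FPKM for cargo kinesins and 56.2 to 60.4 FPKM for the cilium and flagellum group. In spermatocytes the order differed, with 196 to 212 FPKM for the cilium and flagellum group, 170 to 192 FPKM for the mitotic group and 26.03 to 27.5 FPKM for cargo kinesins. Kif9 alone gave 91.6 to 98.4 FPKM of the cilium and flagellum sum, and without Kif9 that group would lie below the mitotic group. The most abundant member in each cultured group was Kif20a, which brings the chromosomal passenger complex to the midzone, at a mean of 45.2 to 53.4 FPKM. In spermatocytes it was Kif9, a motor of motile cilia and the sperm tail, at 92.6 ± 1.36 FPKM in KO and 97.6 ± 1.26 FPKM in WT (SD, n = 2, 1 library per age), followed by the microtubule depolymerase Kif2a at 55.9 ± 11.05 FPKM in KO and 57.2 ± 11.9 FPKM in WT (SD, n = 2). Cultured and sorted cells differ in origin and handling as well as in stage, and these cannot be told apart.

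**Figure D1:**
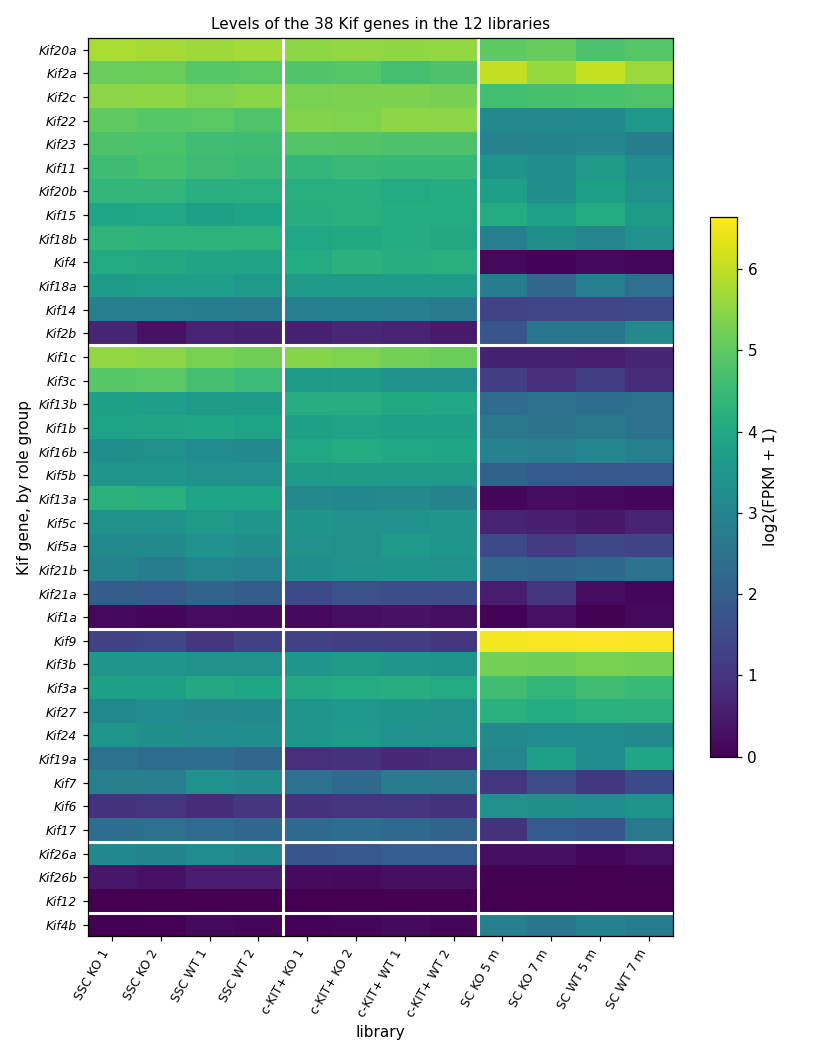
Heat map of log2(FPKM + 1) for the 38 Kif genes (rows, by role group and mean level) in the 12 libraries (columns, SC for spermatocytes, m for months). The cilium and flagellum block is led by Kif9, which is bright only in the 4 spermatocyte libraries, while the cargo block is dark there and Kif4 and Kif4b exchange places.

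Short motifs were counted in the promoters of the Kif genes. RefSeq windows of 300 bases around annotated start sites (GRCm38.p6) were found for 31 of the 38 genes, in 35 windows, and none was matched for Kif4b, Kif5a, Kif5b, Kif13b, Kif19a, Kif20a and Kif21b. TTTGAA, the cell cycle genes homology region through which many mitotic genes are repressed outside division, was searched on both strands. It stood in 9 of 13 mitotic windows, in 1 of 10 cargo windows and in 1 of 9 cilium and flagellum windows, and in 17.9% of all 32851 windows. CCAAT, the NF-Y box that often lies nearby, stood in 7 of 13 mitotic windows, in 5 of 9 cilium and flagellum windows and in 37.4% of all windows, and no Kif window had the CCAAT and TTTGAA matches overlapping. GTTGCC, an RFX motif found in many ciliary genes, stood in 5 of 9 cilium and flagellum windows, 2 of which overlap at Kif9, in 3 of 10 cargo windows, in 3 of 13 mitotic windows and in 12.5% of all windows. The core of the MYB site, AACTG, stood in 14 of the 35 Kif windows and in 44.8% of all windows. The windows of 2 mitotic kinesins (TTTGAA and CCAAT, or their reverse complements, in capitals) and of 2 ciliary ones (GTTGCC in capitals) are shown 5′ to 3′ on the strand of the gene, because they show the motifs at 2 genes that were lower and 2 that were higher in spermatocytes than in SSCs. Kif9 and Kif3a were picked from the 4 ciliary genes with GTTGCC because they were higher. Kif17 and Kif24, the other two, were not called. Kif4 passed the filter of this comparison only through cultured libraries, so it had to be lower. The Kif23 window also holds GTTGCC, which is not capitalized there. A match is a description of the letters and not a measured binding site.
Kif23 promoter, chr9:61946750-61947049, minus strand: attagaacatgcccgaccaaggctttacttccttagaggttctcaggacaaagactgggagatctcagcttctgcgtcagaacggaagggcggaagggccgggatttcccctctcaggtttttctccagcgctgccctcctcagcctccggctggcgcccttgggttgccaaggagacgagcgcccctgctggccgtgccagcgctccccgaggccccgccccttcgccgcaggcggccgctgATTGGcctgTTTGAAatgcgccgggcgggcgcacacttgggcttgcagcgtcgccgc
Kif4 promoter, chrX:100625815-100626114, plus strand: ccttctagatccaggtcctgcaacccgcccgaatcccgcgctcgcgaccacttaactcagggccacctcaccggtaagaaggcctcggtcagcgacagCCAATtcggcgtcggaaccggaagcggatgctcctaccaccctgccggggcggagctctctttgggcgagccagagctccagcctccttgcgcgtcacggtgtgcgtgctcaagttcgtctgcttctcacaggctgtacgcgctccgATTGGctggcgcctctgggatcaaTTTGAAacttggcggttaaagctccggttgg
Kif9 promoter, chr9:110476708-110477007, plus strand: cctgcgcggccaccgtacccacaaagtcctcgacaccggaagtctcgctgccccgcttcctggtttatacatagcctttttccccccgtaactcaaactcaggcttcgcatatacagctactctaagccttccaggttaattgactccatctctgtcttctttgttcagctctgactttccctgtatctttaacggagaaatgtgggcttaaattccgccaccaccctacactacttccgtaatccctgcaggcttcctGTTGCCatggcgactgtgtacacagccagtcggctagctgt
Kif3a promoter, chr11:53567119-53567418, plus strand: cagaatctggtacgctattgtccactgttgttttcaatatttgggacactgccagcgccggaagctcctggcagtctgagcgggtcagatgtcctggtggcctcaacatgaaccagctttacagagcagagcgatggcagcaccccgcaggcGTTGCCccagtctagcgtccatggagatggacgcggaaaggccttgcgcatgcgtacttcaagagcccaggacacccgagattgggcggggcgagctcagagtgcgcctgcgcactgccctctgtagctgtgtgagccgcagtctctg

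The largest changes with RA were falls of the ciliary Kif19a, of the cargo kinesins Kif3c and Kif13a and of Kif26a. In KO cells 7 Kif genes were higher and 11 lower in c-KIT+ cells than in SSCs, of 33 tested, where 24.6% and 16% of all 11981 genes tested were higher and lower (40.5% in either direction). In WT cells 8 were higher and 8 lower, where 24.9% and 15.9% of all genes were (40.7% in either direction). The median log2 fold change over the Kif genes was -0.06 in KO and -0.05 in WT, against 0.07 and 0.08 over all genes tested. Of the 33, 8 were lower and 6 higher in both genotypes and 13 were called in neither. The other 5 Kif genes (Kif1a, Kif2b, Kif4b, Kif12 and Kif26b) did not pass the filter.

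Kif19a, which limits the length of cilia by taking microtubule ends apart, fell furthest. It was at 0.876 and 0.925 FPKM in KO c-KIT+ cells, against 4.58 and 4.09 FPKM in KO SSCs, and at 0.695 and 0.787 FPKM in WT c-KIT+ cells, against 4.302 and 3.58 FPKM in WT SSCs. Each c-KIT+ library lay below every SSC library, and the change on the log2 scale was -1.49 in KO (SE 0.09, adjusted p = 6.33e-06 in limma) and -1.50 in WT (SE 0.09, adjusted p = 5.76e-06). Kif7, a ciliary regulator of hedgehog signaling, was at 4.52 and 3.89 FPKM in KO c-KIT+ cells, against 6.39 and 6.24 FPKM in KO SSCs, and at 5.87 and 5.73 FPKM in WT c-KIT+ cells, against 9.33 and 8.49 FPKM in WT SSCs. Within each genotype the c-KIT+ and SSC values of Kif7 did not overlap (log2 fold change -0.49 in KO and -0.54 in WT, adjusted p = 0.000786 and 0.000476, limma). Its homologue Kif27 was higher in c-KIT+ cells, by 0.32 in KO and 0.25 in WT on the log2 scale. The motor subunit Kif3a was called higher in KO only (0.28, against 0.12 with adjusted p = 0.0802 in WT), and its partner Kif3b was called in neither (0.07 and 0.04). Kif6, Kif9, Kif17 and Kif24 were called in neither. The adaptor Kifap3 of the same motor was higher in both (0.51 and 0.49). Over the 9 light chains and adaptors, 3 were higher and 2 lower in KO, where 24.6% and 16% of all genes were. In WT 2 were higher and 2 lower, where 24.9% and 15.9% of all genes were. The light chain Klc2 was lower in both (-0.49 and -0.59).

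Of 11 cargo kinesins tested, 3 fell and 3 rose in each genotype, where 16% and 24.6% of all genes did in KO and 15.9% and 24.9% in WT. Kif3c, a kinesin-2 subunit, was at 11.1 and 11.5 FPKM in KO c-KIT+ cells, against 29.1 and 29.7 FPKM in KO SSCs, and at 9.45 and 9.11 FPKM in WT c-KIT+ cells, against 24.4 and 21.96 FPKM in WT SSCs. All 4 c-KIT+ values were below all 4 SSC values, and the log2 fold change was -1.31 in KO (SE 0.06, adjusted p = 1.1e-06) and -1.23 in WT (SE 0.06, adjusted p = 1.5e-06, limma). Kif13a, which moves endosomes, was at 7.76 and 7.49 FPKM in KO c-KIT+ cells, against 18.2 and 17.2 FPKM in KO SSCs, and at 7.77 and 6.79 FPKM in WT c-KIT+ cells, against 13.3 and 13.5 FPKM in WT SSCs. The c-KIT+ values of Kif13a overlapped between the genotypes, while its KO SSC values lay above its WT SSC values (log2 fold change with RA -1.12 in KO and -0.80 in WT). Kif21a, which limits microtubule growth at the cell cortex, was also lower in both (-0.37 and -0.46).

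The cargo kinesins that rose were Kif16b, Kif13b and Kif21b. Kif16b, which moves early endosomes, was at 14.6 and 15.8 FPKM in KO c-KIT+ cells, against 8.802 and 9.11 FPKM in KO SSCs, and at 14.5 and 14.1 FPKM in WT c-KIT+ cells, against 8.21 and 8.09 FPKM in WT SSCs. Every c-KIT+ library was above every SSC library, with a log2 fold change of 0.70 in KO (adjusted p = 2.18e-05) and 0.74 in WT (adjusted p = 1.69e-05, limma). Kif13b and Kif21b each rose by 0.41 in KO and 0.41 in WT on the log2 scale. Kif1c, the most abundant cargo kinesin, was called in neither genotype (-0.12 in KO, adjusted p = 0.0982, and -0.06 in WT, adjusted p = 0.373, limma). Kif1b and the heavy chains Kif5a, Kif5b and Kif5c were not called in either genotype.

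Kif26a, a kinesin without motor activity that restrains GDNF-RET signaling in mouse enteric neurons, was at 2.41 and 2.46 FPKM in KO c-KIT+ cells, against 7.54 and 6.86 FPKM in KO SSCs, and at 2.96 and 2.95 FPKM in WT c-KIT+ cells, against 8.203 and 7.49 FPKM in WT SSCs. All 4 c-KIT+ values were below all 4 SSC values (log2 fold change -1.25 in KO, adjusted p = 4.04e-06, and -1.16 in WT, adjusted p = 5.95e-06, limma). GDNF is the growth factor on which SSCs in culture depend.

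Of 12 mitotic kinesins tested, 2 were higher and 5 lower with RA in KO, where 24.6% and 16% of all genes were. In WT 4 were higher and 2 lower, where 24.9% and 15.9% of all genes were. Kif22, a chromokinesin that moves chromosome arms, was at 40.8 and 39.9 FPKM in KO c-KIT+ cells, against 31.6 and 28.8 FPKM in KO SSCs, and at 44.8 and 44.1 FPKM in WT c-KIT+ cells, against 29.4 and 27.1 FPKM in WT SSCs. It was the mitotic kinesin with the largest change, 0.41 in KO and 0.63 in WT on the log2 scale, without overlap between c-KIT+ and SSC libraries. Kif15, which helps to keep the spindle bipolar, was also higher in both (0.21 and 0.28), and the depolymerases Kif18b (-0.32 and -0.24) and Kif2a (-0.26 and -0.20) were lower in both. Called in 1 genotype only were Kif20a (-0.24), Kif20b (-0.20) and Kif2c (-0.19), lower in KO, and Kif4 (0.31) and Kif23 (0.19), higher in WT. Kif11, which pushes spindle poles apart, Kif14 and Kif18a were called in neither. Of the 9 midzone and centromere partners, 1 was lower in KO and none was called in WT. Without any 1 library of the comparison, the calls for Kif19a, Kif3c, Kif26a, Kif13a, Kif7, Kif16b, Kif22 and Kif13b held in both genotypes, while the counts of Kif genes called fell to 3 to 6 higher and 6 to 9 lower in KO and to 3 to 4 higher and 5 to 6 lower in WT.

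**Figure D2:**
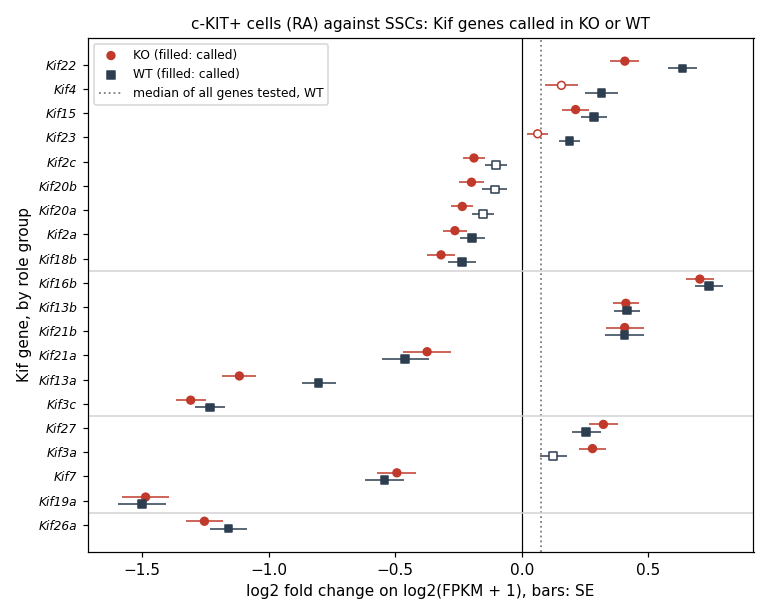
Log2 fold change of c-KIT+ cells over SSCs, with SE, for the Kif genes called in KO (circles) or WT (squares), by role group. Filled symbols passed an adjusted p of 0.01, and the dotted line is the median of all genes tested in WT, at 0.08. Kif19a, Kif3c, Kif26a and Kif13a lie furthest to the left and Kif16b furthest to the right.

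No Kif gene was called for an RA response that differed between the genotypes. The interaction test called 0 of 11981 genes (limma), with 865 genes and 2 Kif genes at an unadjusted p under 0.05. These were Kif13a (difference -0.31, SE 0.10, adjusted p = 0.513) and Kif22 (-0.23, SE 0.08, adjusted p = 0.6). A difference between genotypes in the genes called with RA is therefore not shown for any of them.

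Few kinesins were called between KO and WT in cultured cells. In KO SSCs 2 Kif genes were higher and 1 lower, of 33 tested, where 2.11% and 2.79% of all genes were (4.9% in either direction), and 13 were at an unadjusted p under 0.05. In KO c-KIT+ cells none was called, where 1.11% and 1.59% of all genes were higher and lower (2.7% in either direction), and 8 were at an unadjusted p under 0.05 (limma). Kif3c, on chromosome 12 from 3365131 to 3406494 in mm9, was at 29.1 and 29.7 FPKM in KO SSCs and 24.4 and 21.96 FPKM in WT SSCs (0.33 on the log2 scale, SE 0.06, with an adjusted p of 0.00903 by limma). Kif13a, on chromosome 13 from 46844456 to 47025087, was at 18.2 and 17.2 FPKM in KO SSCs and 13.3 and 13.5 FPKM in WT SSCs (0.37, SE 0.07, adjusted p = 0.00943). For both, the KO SSC libraries lay above the WT SSC libraries. In c-KIT+ cells the difference was 0.26 for Kif3c (adjusted p = 0.0357) and 0.06 for Kif13a (adjusted p = 0.643).

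Kif7, on chromosome 7 from 86842983 to 86859072 in mm9, was lower in KO SSCs, at 6.39 and 6.24 FPKM, against 9.33 and 8.49 FPKM in WT SSCs (-0.44, SE 0.08, adjusted p = 0.00886 in limma). After RA it was at 4.52 and 3.89 FPKM in KO c-KIT+ cells and 5.87 and 5.73 FPKM in WT c-KIT+ cells, which also do not overlap, with a difference of -0.39 that did not pass (adjusted p = 0.0205). Most markers listed for fibroblasts and peritubular cells were lower too. Their summed level over 6 genes was 47.4 to 49.5 FPKM in KO SSCs and 70.8 to 72.1 FPKM in WT SSCs, and 48.0 to 50.6 FPKM in KO c-KIT+ cells and 72.0 to 72.4 FPKM in WT c-KIT+ cells. Of the 5 markers tested, 5 were called lower in KO SSCs. In c-KIT+ cells of the KO all 5 lay below 0 and 4 were called lower. None of the 6 was under 0.1 FPKM, and their part in the Kif7 result was not tested. The sum was led by Col1a1. The marker that did not pass the filter, Myh11, went the other way, at 0.614 and 0.631 FPKM in KO SSCs and 0.3304 and 0.382 FPKM in WT SSCs. None of the 3 calls in SSCs held when any 1 of the 4 SSC libraries was left out, where the adjusted p reached 0.069 for Kif3c, 0.073 for Kif13a and 0.0628 for Kif7 over all alternatives.

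All 12 mitotic kinesins tested were above 0 in KO SSCs relative to WT SSCs, also under each scaling tried (11 or 12 of 12 without any 1 SSC library), with a median log2 fold change of 0.11, but none was called. Over all genes tested 52.3% were above 0 and the median was 0.01. The largest values in this group were those of Kif2a (0.20, adjusted p = 0.0284), Kif20b (0.20, adjusted p = 0.0329) and Kif23 (0.19, adjusted p = 0.0196, limma), which builds the central spindle. The 8 markers of proliferation were likewise all above 0 (median 0.16), as were the 9 midzone and centromere partners of the mitotic kinesins (median 0.11), and no gene of either list was called. Aurkb is in both lists. In c-KIT+ cells 8 of the 12 mitotic kinesins were above 0 in KO, with a median of 0.02. The most abundant cargo kinesin, Kif1c, was at 46.01 and 43.6 FPKM in KO SSCs and 38.3 and 35.9 FPKM in WT SSCs, values that do not overlap but did not pass (0.27, adjusted p = 0.0163). Kif1c was called under 2 of 11 alternatives, with equal totals (0.34, adjusted p = 0.00705) and with replicate numbers as a block.

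Kif genes were called between spermatocytes and SSCs about as often as all genes were. Of 35 Kif genes tested, 9 were higher and 23 lower in KO spermatocytes than in KO SSCs, where 25.6% and 59.6% of all 13247 genes tested were (85.2% in either direction). In WT spermatocytes 9 were higher and 22 lower than in WT SSCs, where 26.1% and 59.7% of all genes were (85.9% in either direction). Most genes lay below 0 in this comparison, with a median over all genes of -0.87 in KO and -0.89 in WT, and changes are read against that shift. Median-ratio scaling, which sets the median of all genes near 0, gave 13 Kif genes higher and 14 lower in KO and 14 higher and 14 lower in WT. Under it Kif16b, Kif20a, Kif20b, Kif21b, Kif24 and Kif2c lay above 0 in both genotypes, whereas they lay below 0 with the values as deposited. The same 9 Kif genes were higher in both genotypes, and 22 were lower in both. Of the 35, 2 (Kif2b and Kif4b) passed the filter only through spermatocyte libraries and 6 (Kif13a, Kif1c, Kif21a, Kif26a, Kif4 and Kif5c) only through cultured libraries, so these 8 had to differ, and their fold changes are given as descriptions.

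Most kinesins of the cilium and flagellum rose. Of 9 tested, 6 were called higher and 1 lower in both genotypes, with a median log2 fold change of 0.96 in KO and 1.10 in WT, against -0.87 and -0.89 over all genes. Over all genes 25.6% were called higher and 59.6% lower in KO, and 26.1% and 59.7% in WT. Spermatid markers were higher in the same comparison. Of 7, 6 were called higher in KO and 7 in WT, with medians of 2.46 and 2.96, and their sum was 207 to 501 FPKM in spermatocytes and 12.8 to 16.9 FPKM in SSCs, where 4 of the 7 were under 0.1 FPKM. Prm1, Prm2, Tnp2, Acrv1 and Tssk6 passed the filter only through spermatocyte libraries, so they had to be higher. The part of spermatid RNA in the ciliary kinesins was not tested. Kif9, on chromosome 9 from 110379461 to 110427678 in mm9, was at 91.6 and 93.5 FPKM in KO spermatocytes at 5 and 7 months, against 1.43 and 1.64 FPKM in KO SSCs, and at 98.4 and 96.7 FPKM in WT spermatocytes, against 1.09 and 1.44 FPKM in WT SSCs. Its mean was 60.3-fold higher in KO spermatocytes than in KO SSCs and 77.1-fold higher in WT, or 5.21 (SE 0.09, adjusted p = 8.02e-11) and 5.45 on the log2 scale (SE 0.09, adjusted p = 6.15e-11, limma). Kif6, of the same kinesin-9 family, was at 9.605 and 8.81 FPKM in KO spermatocytes, against 0.972 and 1.04 FPKM in KO SSCs, and at 8.29 and 9.81 FPKM in WT spermatocytes, against 0.838 and 1.07 FPKM in WT SSCs. No spermatocyte value of either kinesin-9 gene came near the cultured values, and Kif6 had a log2 fold change of 2.35 in KO and 2.36 in WT.

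Both subunits of the intraflagellar transport motor rose, Kif3b more than Kif3a. Kif3b was at 36.9 and 35.9 FPKM in KO spermatocytes, against 10.5 and 10.04 FPKM in KO SSCs, and at 38.7 and 36.9 FPKM in WT spermatocytes, against 9.68 and 9.603 FPKM in WT SSCs. The log2 fold change was 1.73 in KO and 1.87 in WT for Kif3b and 0.72 and 0.57 for Kif3a. Kifap3, which binds the motor pair to its cargo, also rose (1.05 in KO and 1.27 in WT), while the alternative subunit Kif3c fell (-3.86 and -3.58). Kif19a rose by 0.99 and 1.26 and Kif27 by 0.96 and 1.10 on the log2 scale. Kif19a thus had its lowest levels in c-KIT+ cells, at 0.70 to 0.92 FPKM, against 3.58 to 4.58 FPKM in SSCs and 7.21 to 13.9 FPKM in spermatocytes. Kif7 was the ciliary kinesin that fell (-1.60 in KO and -2.03 in WT), and Kif17 and Kif24 were not called.

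Cargo kinesins were lower. All 11 tested lay below 0, with medians of -1.51 in KO and -1.86 in WT. In KO 11 were called lower and in WT 10, where 59.6% and 59.7% of all genes were. Kif16b did not pass in WT (-0.25, adjusted p = 0.0148, limma). Kif13a, Kif1c, Kif21a and Kif5c passed the filter only through cultured libraries, so they had to be lower, and they enter these counts and medians. Kif16b and Kif21b lay above 0 under median-ratio scaling. The 5 tested markers of fibroblasts and peritubular cells were also all called lower, with medians of -3.04 in KO and -3.52 in WT, and the sum of the 6 listed was 1.18 to 2.63 FPKM in spermatocytes and 47.4 to 72.1 FPKM in SSCs. Of these, Col1a1, Col1a2, Col3a1 and Pdgfra passed the filter only through cultured libraries, so they had to be lower. The part of RNA from such cells in the cargo kinesins was not tested. Kif1c was at 0.512 and 0.507 FPKM in KO spermatocytes, against 46.01 and 43.6 FPKM in KO SSCs, and at 0.434 and 0.623 FPKM in WT spermatocytes, against 38.3 and 35.9 FPKM in WT SSCs. The mean of Kif1c, which carries vesicles and mRNA, was 88.0-fold lower in KO spermatocytes and 70.2-fold lower in WT spermatocytes (log2 fold change -4.92 and -4.64). Kif13a was at 0.088 and 0.156 FPKM in KO spermatocytes and at 0.111 and 0.057 FPKM in WT spermatocytes (-4.06 and -3.73). Of the 3 heavy chains of conventional kinesin, Kif5c fell by more (-2.79 and -3.0) than Kif5a (-1.83 and -1.93) and Kif5b (-1.51 and -1.57), a difference that was not tested. Kif1b, Kif13b, Kif21a and Kif21b were lower in both, between -1.86 for Kif21a and -0.63 for Kif21b in WT. Kif26a, outside the cargo group, was lower too (-2.78 and -2.97).

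Of the 9 light chains and adaptors that join kinesin-1 and kinesin-2 to cargo, 3 were higher and 6 lower in both genotypes. These counts are near the shares of all genes, 25.6% higher and 59.6% lower in KO and 26.1% and 59.7% in WT. The higher ones were Trak1, a mitochondrial adaptor (1.60 in KO and 1.78 in WT), Kifap3, and the light chain Klc2 (0.93 and 0.87). The light chain Klc3 fell furthest (-2.86 and -2.84). Among kinesins with other symbols, Kifc3 rose (2.22 and 2.63) and Kifc1 (-2.10 and -1.95), Kifc5b and Cenpe fell. Kifc1 and Kifc5b are near copies of each other, so their split is uncertain.

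Mitotic kinesins lay close to the shift of all genes. Of 13 tested, 2 were higher and 10 lower in both genotypes, where 59.6% of all genes were lower in KO and 59.7% in WT, and Kif15 was not called. Their median was -1.17 in KO and -1.03 in WT, against -0.87 and -0.89 over all genes, and Kif20a, Kif20b and Kif2c lay above 0 under median-ratio scaling. Kif23 was at 6.66 and 6.96 FPKM in KO spermatocytes, against 26.8 and 26.3 FPKM in KO SSCs, and at 7.27 and 6.09 FPKM in WT spermatocytes, against 23.3 and 22.9 FPKM in WT SSCs. The spermatocyte values lay below all SSC values, at -1.82 in KO and -1.65 in WT on the log2 scale, beside -1.84 and -1.52 for Kif22 and -1.50 and -1.34 for Kif14. Kif11, Kif18a, Kif18b, Kif20a and Kif20b were lower in both genotypes, between -1.29 for Kif11 in KO and -0.62 for Kif20b in WT. The higher ones were the kinesin-13 depolymerases Kif2a (0.69 and 0.92) and Kif2b (1.67 and 2.25), of which Kif2b passed the filter through spermatocytes only, while the kinesin-13 gene Kif2c fell (-0.84 and -0.64). Of the 9 mitotic genes with TTTGAA in a promoter window, 8 were lower and none higher in both genotypes. Of the 3 without it, Kif2a and Kif2b were higher and Kif18a lower. Kif4, among the 8, passed the filter only through cultured libraries and Kif2b only through spermatocytes, so the filter had set their directions. Of the 4 ciliary genes with GTTGCC, 2 were higher and none lower, and of the 4 without it 3 were higher and 1 lower. These are counts of few genes, with no test. The midzone partners Prc1 (0.85 and 1.00), Birc5 and Cit rose, while Aurkb (-2.02 and -1.94), Incenp, Psrc1, Ect2 and Tpx2 fell. Psrc1 passed the filter only through cultured libraries, so it had to be lower.

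**Figure D3:**
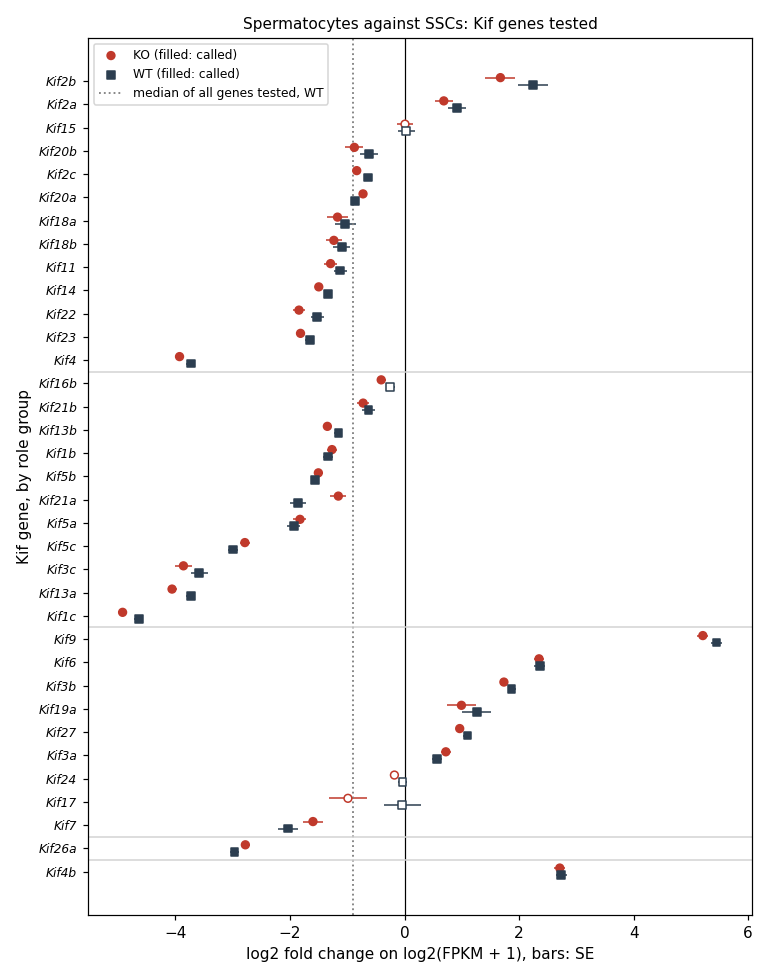
Log2 fold change of spermatocytes over SSCs, with SE, for the 35 Kif genes tested in KO (circles) and WT (squares), by role group. From top to bottom the groups are mitotic, cargo, cilium and flagellum, Kif26a and Kif4b. Filled symbols passed an adjusted p of 0.01, and the dotted line is the median of all genes in WT, at -0.89. Cargo kinesins lie left of 0 in both genotypes, and 6 of 9 kinesins of the cilium and flagellum are called to its right.

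The mitotic kinesin with the lowest fold change, Kif4, has a copy that was higher in spermatocytes. Kif4, a chromokinesin that organizes the anaphase midzone, lies on chromosome X from 97821403 to 97922610 in mm9. Kif4b lies on chromosome 12 from 102383818 to 102387483 and is annotated by RefSeq, under the name Kif4-ps, as a processed pseudogene, that is, a copy made from the mRNA. In the GENCODE M21 annotation of GRCm38 its transcript has 1 exon, against 30 exons of Kif4, and its type is transcribed processed pseudogene. The transcripts were 79.5% identical over 3692 aligned columns, and the longest run without a difference had 64 bases. The longest reading frame from an ATG had 1221 codons in Kif4-ps, against 1231 codons in Kif4. A stretch of 90 bases that includes the ATP-binding loop of the motor domain is shown for both, with the 15 bases that differ in capitals, because a read over such a base can be assigned to 1 copy, whereas reads inside an identical run could be counted for either.
Kif4-ps, chr12:101145844-101145933, plus strand, GRCm38: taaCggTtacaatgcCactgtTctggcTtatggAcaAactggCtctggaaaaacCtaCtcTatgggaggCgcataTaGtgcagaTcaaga
Kif4, transcript bases 963 to 1052, from 2 exons within chrX:100626814-100633923, plus strand, GRCm38: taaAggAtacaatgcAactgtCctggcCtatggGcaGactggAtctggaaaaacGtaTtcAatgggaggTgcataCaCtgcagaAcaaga

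Kif4b was at 6.22 and 5.13 FPKM in KO spermatocytes, against 0.022 and 0.011 FPKM in KO SSCs, and at 6.59 and 5.78 FPKM in WT spermatocytes, against 0.095 and 0.057 FPKM in WT SSCs. Kif4 was at 0.10 and 0.038 FPKM in KO spermatocytes, against 15.6 and 14.98 FPKM in KO SSCs, and at 0.104 and 0.066 FPKM in WT spermatocytes, against 13.7 and 13.1 FPKM in WT SSCs. No value of one gene in spermatocytes overlapped its values in cultured cells, and the order of the genes was opposite in the 2 cell systems. The log2 fold change was 2.71 in KO and 2.74 in WT for Kif4b and -3.93 and -3.73 for Kif4. Each gene passed the filter only through the cells in which it is high, so no test is given. In the WT library at 5 months, the one with confidence limits, the limits correspond to 578 fragments on Kif4b and 12 on Kif4. RA left Kif4b near 0, at 0.05 and 0.064 FPKM in KO c-KIT+ cells and 0.123 and 0.057 FPKM in WT c-KIT+ cells. Genes of chromosome X are known to be silenced in pachytene spermatocytes. Of 486 genes of chromosome X tested, 96.3% lay below 0 in KO and 97.1% in WT, with medians of -2.56 and -2.62, and 23.3% and 29.4% of them fell by more than Kif4. For those that passed the filter only through cultured libraries, as Kif4 did, the filter had set the direction, and their number was not counted. The part of this silencing in the Kif4 values was not tested.

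**Figure D4:**
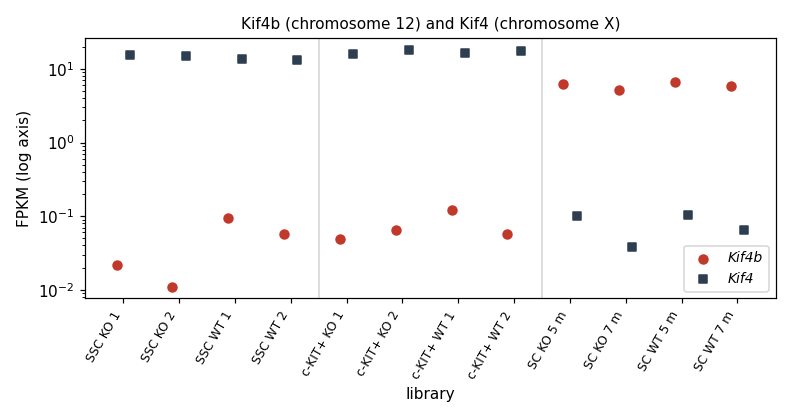
FPKM (log axis) of Kif4b (circles) and Kif4 (squares) in the 12 libraries (SC for spermatocytes, m for months). Kif4 lies at 13.1 to 18.3 FPKM in the 8 cultured libraries and Kif4b at 5.13 to 6.59 FPKM in the 4 spermatocyte libraries, and each is near 0 in the other set.

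Between KO and WT spermatocytes 1 Kif gene was called lower and none higher, of 29 tested, where 1.34% and 0.332% of all 9350 genes tested were, and 3 Kif genes were at an unadjusted p under 0.05 (limma). Kif17, an accessory ciliary motor of which a testis form moves a transcriptional coactivator out of the nucleus of mouse spermatids, lies on chromosome 4 from 137818165 to 137857888 in mm9. It was at 0.928 FPKM in KO and 2.39 FPKM in WT at 5 months, and at 2.705 FPKM in KO and 5.35 FPKM in WT at 7 months. KO was lower at both ages, although the KO value at 7 months exceeds the WT value at 5 months (-0.80, SE 0.11, adjusted p = 0.0461, limma with age as a block). Kif2b was at 2.45 FPKM in KO and 5.09 FPKM in WT at 5 months, and at 5.04 FPKM in KO and 7.703 FPKM in WT at 7 months, and did not pass (-0.67, SE 0.11, adjusted p = 0.0649). Kif20a was at 30.9 FPKM in KO and 26.7 FPKM in WT at 5 months, and at 33.00 FPKM in KO and 28.4 FPKM in WT at 7 months (0.21, adjusted p = 0.182). The Kif17 call rests on 1 residual degree of freedom and was kept under 2 of 7 alternatives (adjusted p 0.0446 to 1.00).

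Markers of other cells moved with genotype in the sorted spermatocytes. The summed level of 7 spermatid markers was 207 to 240 FPKM in the KO libraries, against 451 to 501 FPKM in the WT libraries. All 7 were below 0 in KO, 4 of them were called lower, and their median log2 fold change was -0.91. Protamine 1, Prm1, was at 80.2 and 50.1 FPKM in KO and 186 and 107 FPKM in WT. The part of spermatid RNA in the Kif17 and Kif2b values was not tested. Kif9 and Kif6, the ciliary kinesins of spermatocytes with the largest rise over SSCs, had log2 fold changes of -0.07 and 0.03 in KO against WT. Kif21a was too low to be tested, at 0.451 and 0.997 FPKM in KO, against 0.158 and 0.092 FPKM in WT. The sum of 5 Sertoli cell markers was 5.65 to 12.6 FPKM in KO and 2.58 to 2.81 FPKM in WT, with none under 0.1 FPKM, and its part in the Kif21a values was not tested.

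**Figure D5:**
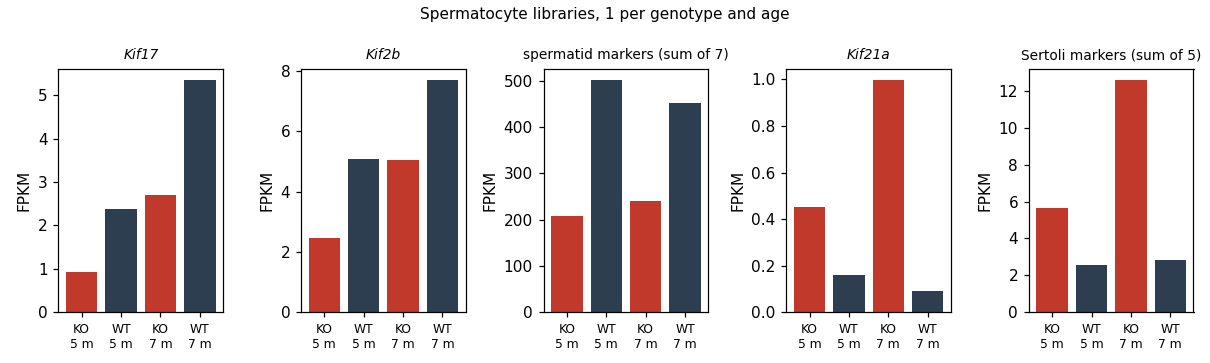
FPKM in the 4 spermatocyte libraries (bars, 1 library each, KO beside WT at 5 and at 7 months, m for months) of Kif17, Kif2b, the sum of 7 spermatid markers, Kif21a and the sum of 5 Sertoli cell markers. The first 3 panels are lower in KO at both ages and the last 2 higher.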

How the data were processed

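RNA-seq libraries of KO and WT SSCs and c-KIT+ cells (2 per group) and of KO and WT spermatocytes (1 per age) were analysed by the groups in their labels. According to the submitters' processing notes and the paper's methods, the authors mapped the reads with TopHat2 2.0.6 (build mm9). They deposited FPKM from Cufflinks 2.0.2, and Cuffdiff was their test. FPKM hold no counts, so depth is unknown except in the WT library at 5 months, where fragments were estimated by taking the distance to its confidence limits as 2 square roots of the fragment number. Each library has 23021 entries, and 728 entries of repeated symbols were left out.

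FPKM were used as deposited, as log2 with a pseudocount of 1, and fitted with limma 3.58.1 in R 4.3.3 (empirical Bayes with a variance trend, Benjamini-Hochberg). The fits were the 8 cultured libraries in 4 groups, all 12 libraries in 6 groups with both ages as 1 group, and the 4 spermatocyte libraries with age as a block. The fits were also run on simulated data with independent noise around a common level per gene, without the shift between spermatocytes and SSCs. No result given here rests on that run. The Kif genes, lists and tests were chosen with earlier results of these data known. Every Kif gene is accounted for by role group. Values per library are given for members called between KO and WT, and up to 10 rises and 10 falls are named with RA and in spermatocytes, with up to 4 genes of other lists. Alternatives were a pseudocount of 0.1, no filter, other scalings and thresholds, no variance trend, a replicate block, no age block, a fit of the compared libraries only, and leaving out each library. Scaling without small RNA genes was chosen after seeing the data. Windows and transcripts come from RefSeq (GRCm38.p6) and GENCODE M21, not from mm9, and were searched with Python 3.11.15 and BLAST 2.17.0.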

Additional observations from a re-analysis of the deposited data

Results flagged for a closer look

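Kif17 lay on opposite sides of 0 for KO against WT in the 2 cell systems. In spermatocytes it was lower in KO than in WT at both ages, with a log2 fold change of -0.80. In SSCs it was at 4.13 and 4.48 FPKM in KO and 3.96 and 3.59 FPKM in WT, so that both KO libraries lay above both WT libraries (0.15, adjusted p = 0.284, limma). The same order held in c-KIT+ cells, at 3.82 and 4.26 FPKM in KO and 3.79 and 3.37 FPKM in WT. The difference between the cell systems was not tested.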

How the results depend on the processing

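Of 2920 values of single genes under the alternatives, 2761 kept direction and side of the threshold, 135 lost a call, 12 gained one and 12 reversed. These values include genes not called in the main fit. Among Kif genes called with RA, 8 of 16 in WT and 8 of 18 in KO passed under every alternative fit. For spermatocytes against SSCs, 24 of 31 in WT and 22 of 32 in KO did, in either direction. In both genotypes these include Kif13a, Kif1c, Kif21a, Kif26a, Kif4, Kif5c, Kif2b and Kif4b. Each of them passed the filter only through the cells in which it is high, so it had to differ. Between KO and WT, 0 of 3 in SSCs and 0 of 1 in spermatocytes did. Leaving out 1 library gave 3 to 4 Kif genes higher and 5 to 6 lower with RA in WT, 3 to 6 higher and 6 to 9 lower with RA in KO, and 0 higher and 0 lower for KO in SSCs. Median-ratio scaling gave 5 Kif genes higher with RA in WT, 14 higher and 14 lower in WT spermatocytes and 14 lower in KO spermatocytes against SSCs, and scaling to equal totals gave 7 lower with RA in KO. For KO in SSCs, 2 higher became 0 with a pseudocount of 0.1, without a filter or without the variance trend, 1 with the replicate block (where Kif3c and Kif13a lost the call and Kif1c gained it) and 6 at an adjusted p under 0.05, and 1 lower became 0 with a pseudocount of 0.1, without a filter or with equal totals. At an adjusted p under 0.05, KO in c-KIT+ cells had 1 higher and 1 lower. For KO in spermatocytes, 1 lower became 0 with a pseudocount of 0.1, without a filter, with equal totals, without the variance trend or without the age block, and 2 at an adjusted p under 0.1. The causes were not tested.

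Values that reversed under median-ratio scaling, which moves the median of all genes between spermatocytes and SSCs to near 0, were those of Kif16b (0.57 in KO, 0.75 in WT), Kif20a (0.35 in KO, 0.23 in WT), Kif20b (0.15 in KO, 0.43 in WT), Kif21b (0.18 in KO, 0.32 in WT), Kif24 (0.82 in KO, 0.97 in WT) and Kif2c (0.23 in KO, 0.45 in WT). The share of all called genes that were higher moved with it too, to 45.4% against 61.1% with RA in WT, to 45.7% against 60.6% with RA in KO, to 49.5% against 30.4% in WT spermatocytes and to 49.3% against 30.1% in KO spermatocytes, and equal totals moved it to 64.7% against 43.1% for KO in SSCs and to 72.0% with RA in WT, where the first WT SSC library has the largest total.

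The labels do not say whether libraries with the same replicate number belong together. Deviations of same-numbered libraries from their group means correlated at -0.07 to 0.28 over pairs of groups. The highest values were those of SSCs with c-KIT+ cells of the same genotype, 0.28 in KO and 0.17 in WT. The other pairs lay at -0.07 to 0.09. A pairing of SSC and c-KIT+ libraries within a genotype was not tested. With the replicate block 1 Kif gene was called higher and 1 lower for KO in SSCs, 8 higher and 8 lower with RA in WT, and 7 higher and 8 lower with RA in KO. Leaving out a library was not possible for KO in spermatocytes, where no residual degree of freedom remains. FPKM carry no counts, so counting error is known only for the WT library at 5 months, where the limits correspond to 21.5 fragments on Kif21a and 6.13 on Kif1a.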

Other observations

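The spermatocyte libraries of the 2 ages differed in some kinesins in the same direction in KO and WT. With 1 library per genotype and age, these are values without a test. Kif19a was at 12.7 FPKM at 7 months and 7.21 FPKM at 5 months in KO, and at 13.9 FPKM at 7 months and 8.35 FPKM at 5 months in WT. Kif2a was at 48.1 FPKM at 7 months and 63.7 FPKM at 5 months in KO, and at 48.8 FPKM at 7 months and 65.6 FPKM at 5 months in WT. Kif19a was thus higher and Kif2a lower in the older mice of both genotypes, while Kif9 lay within 91.6 to 98.4 FPKM in all 4 libraries.

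Outside the Kif symbols, the kinesin-14 gene Kifc5b was higher in KO in both cultured cell types. It was at 18.3 and 18.3 FPKM in KO SSCs and 13.6 and 12.9 FPKM in WT SSCs (0.44, adjusted p = 0.00121, limma), and at 19.4 and 18.5 FPKM in KO c-KIT+ cells and 13.3 and 13.3 FPKM in WT c-KIT+ cells (0.48, adjusted p = 0.00109). Its near copy Kifc1 was at 25.5 and 24.8 FPKM in KO SSCs and 26.4 and 25.05 FPKM in WT SSCs, and at 23.6 and 25.6 FPKM in KO c-KIT+ cells and 28.1 and 28.3 FPKM in WT c-KIT+ cells. Reads shared by the copies can be split between them by the counting, so both values are uncertain. Kifc3, another kinesin-14 gene, was at 3.67 and 3.84 FPKM in KO SSCs and 2.54 and 2.25 FPKM in WT SSCs (0.49, adjusted p = 0.00779), and at 4.53 and 3.903 FPKM in KO c-KIT+ cells and 2.88 and 2.96 FPKM in WT c-KIT+ cells (0.41, adjusted p = 0.0227).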
